A study of Caenorhabditis elegans with 12 samples.

Results

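Wild type Caenorhabditis elegans hermaphrodites of the strain N2 were compared at day 5 and day 0 of adulthood. The comparison takes 6 of the 12 libraries of the study, 3 at day 5 and 3 at day 0, and covers all genes. The other 6 libraries come from mir-71(n4115) mutants at the same ages, and here they only help to estimate the spread between replicates and serve for 1 test of difference. Per the labels, poly(A) RNA was taken from whole animals kept at 20 °C with 0.1 mg/mL 5-fluorodeoxyuridine (FUdR), and the series' design text calls the replicates biological triplicates. The growth notes of both ages give the drug and say that animals went onto it soon after they became adults. The effects of ageing and of a longer stay on FUdR therefore cannot be told apart here. Whole animals also mix all tissues, so that fewer cells of a type and less RNA per cell cannot be told apart.

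A C. elegans hermaphrodite first makes sperm, stores it, and then makes oocytes for the rest of its reproductive life, so stored sperm are used up while oocytes continue to form. The intestine secretes yolk for those oocytes, and the epidermis lays down the adult cuticle around the last molt. FUdR blocks thymidylate synthase and with it DNA synthesis, and is used to keep progeny from developing in ageing cultures. Body wall muscle, pharynx and cuticle are built before or early in adulthood and are known to decline in structure with age.

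Library totals were 27146064, 51997177 and 21374849 counts in N2 day 5 replicates 1, 2 and 3, and 35648218, 51157088 and 34489869 counts in N2 day 0 replicates 1, 2 and 3. Levels are given below in CPM, counts relative to the TMM-scaled library total on the usual scale, in that order of replicates. Genes were tested with the quasi-likelihood method of edgeR and called at an adjusted p under 0.05 (Benjamini-Hochberg, over 16764 genes). Errors are SE for log2 fold changes (day 5 over day 0) and SD for means, with n = 3 each. At this threshold 52.1% of genes were called, 23.8% higher and 28.2% lower at day 5, so that a single call is common and the counts below are read against these shares. In 62% of genes the CPM values of the ages did not overlap. The median log2 fold change over all tested genes was -0.09. It was -0.22 with upper-quartile scaling, the widest shift of any scaling tried. On the first principal component, which held 88.6% of the variance of the 6 libraries, N2 day 5 replicates lay at 120, 107 and 134 and N2 day 0 replicates at -86.1, -151 and -124. Day 0 replicate 1 thus lay nearest to the older animals.

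Falls were deeper than rises. More than 16-fold lower and called were 1351 genes (8.06%), against 81 (0.483%) more than 16-fold higher. The 5th percentile of the log2 fold changes was -5.60 and the 95th was 1.63. In the plot of change by abundance most of the deep falls belong to none of the coloured lists, and the most abundant risers are yolk genes.

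**Figure D1:**
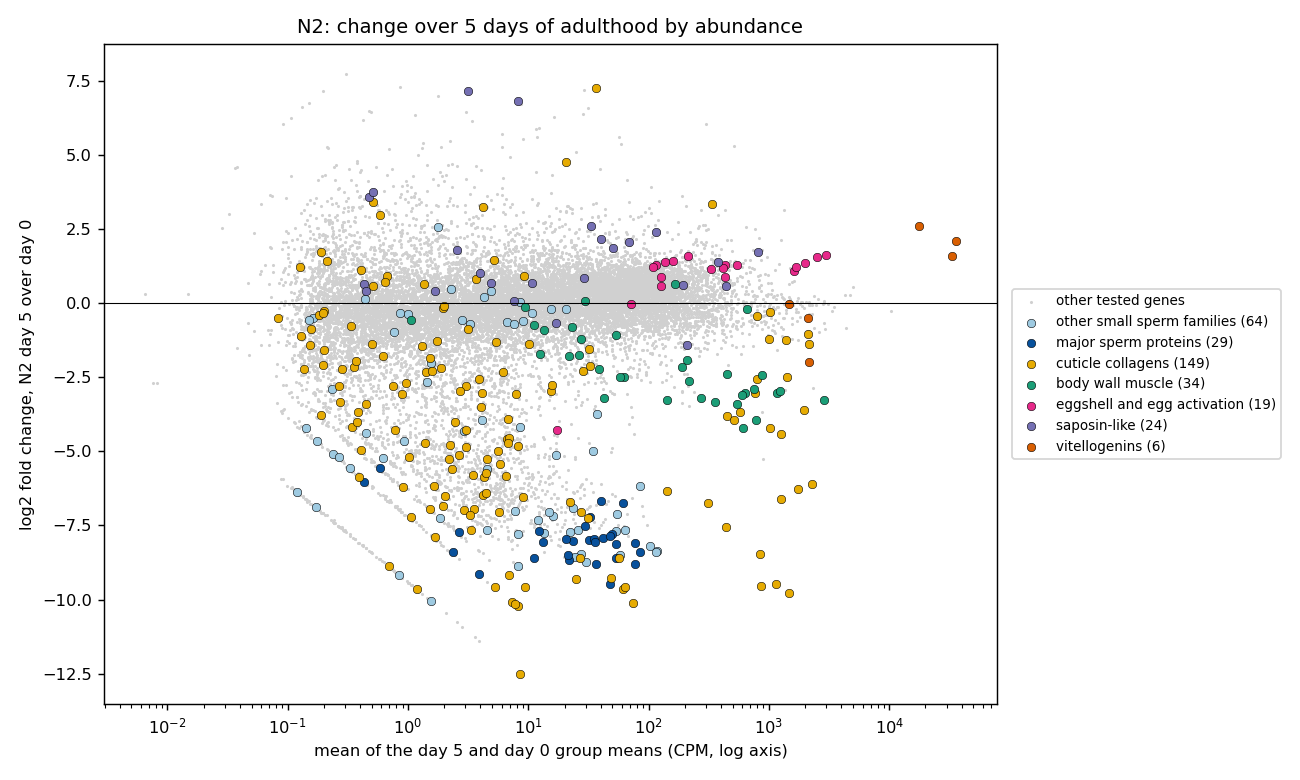
Log2 fold change (N2 day 5 over N2 day 0, vertical axis) against the mean of the day 5 and day 0 means in CPM (log axis), 1 point per tested gene, with 7 lists in colour and their tested number in the legend. Major sperm proteins sit between -9.47 and -5.57, cuticle collagens spread from -12.51 to 7.24, and 3 yolk genes lie at the far right above 0.

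The gene with the largest rise by the naming rule was col-183 (WBGene00000756; WBcel235 chromosome X, 13466643 to 13467764), a cuticle collagen. It had 104, 67.6 and 43.9 CPM at day 5 and 0.466, 0.662 and 0.239 CPM at day 0 (log2 7.24 ± 0.68, adjusted p = 6.5e-06). lys-7, a lysozyme of the intestine (chromosome V, 3481432 to 3482600), had 969, 653 and 1353 CPM at day 5 and 23.3, 19.9 and 33.4 CPM at day 0 (log2 5.28 ± 0.40, adjusted p = 2.05e-06). In both genes every day 5 library lay far above every day 0 library. far-3, which encodes a fatty acid and retinol binding protein, had 484, 758 and 531 CPM at day 5 against 12.7, 6.62 and 8.02 CPM at day 0 (log2 6.02 ± 0.50, adjusted p = 2.99e-06). hen-1, which encodes a secreted protein with an LDL receptor motif, had 17.8, 17.7 and 17.3 CPM at day 5 and 0.336, 0.35 and 0.449 CPM at day 0 (log2 5.54 ± 0.35, adjusted p = 9.53e-07). The others of the 12 largest rises were spp-9, mtl-1, dct-8, abf-2, oac-32, rcd-1, ugt-31 and snpc-1.3, at log2 6.81, 6.56, 6.28, 5.61, 5.59, 4.32, 3.90 and 3.71. For dct-8 the value was 7.15 without day 0 replicate 3, and for ugt-31 it was 4.79 without day 0 replicate 2.

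Of the 12 largest falls, col-13 is a collagen and msp-49, ssp-19, nspd-3, msd-2, ssq-3, msrp-6 and nsph-3.2 belong to families of small or major sperm proteins. The rest of the 12 are not listed here. col-13 had 0 counts in all 3 day 5 libraries and 17.1 ± 12.2 CPM at day 0, and so was at least 109-fold lower at day 5, taking 3 counts in the shallowest day 5 library as the floor. Of all genes with a mean of at least 8 CPM at day 0, 19 had under 3 counts in every day 5 library. The opposite pattern, under 3 counts in every day 0 library and at least 8 CPM at day 5, was found in 0 genes. Among those 19, 7 are collagens (col-13, col-73, col-145, col-146, col-161, col-167 and col-168, named after their values were seen) and 1 is the sperm-specific ssp-19.

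**Figure D2:**
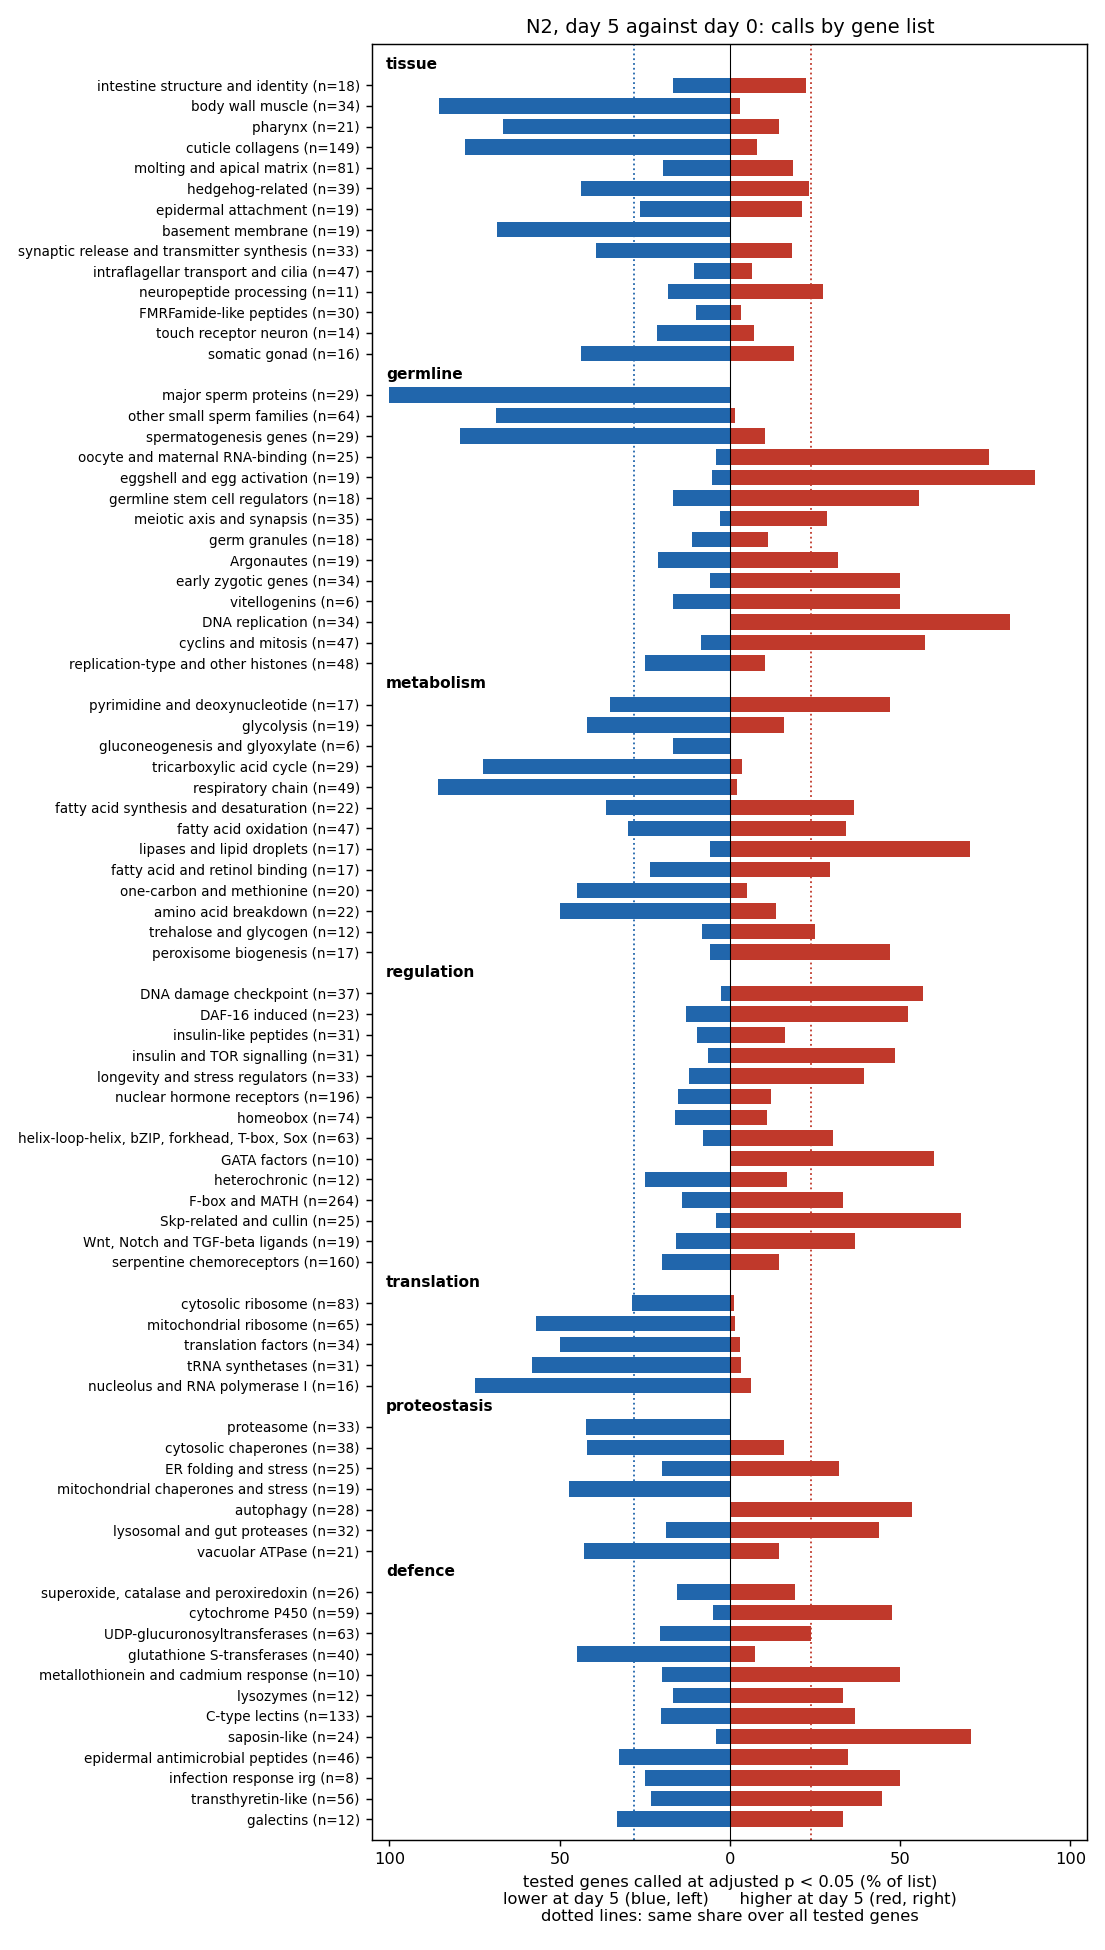
Share of each list's tested genes that were called lower (blue, left) or higher (red, right) at N2 day 5, in % with 79 lists grouped by class and the tested number in brackets. Dotted lines mark the shares over all tested genes, 28.2% lower and 23.8% higher. Sperm, muscle, collagen and respiratory chain lists extend far to the left, and oocyte, eggshell, DNA replication, saposin-like and Skp-related lists to the right.

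Yolk genes moved the largest part of the RNA pool. Vitellogenins, the lipid-carrying yolk proteins that the intestine secretes, took 15.5%, 11.6% and 11.5% of the counts of the day 5 libraries and 5.11%, 4.12% and 3.75% of the day 0 libraries. The groups did not overlap, and day 5 replicate 1 stood above its fellows. The rise came from 3 of 6 genes. vit-5 (chromosome X, 3403471 to 3408603) had 37435, 25186 and 27689 CPM at day 5 and 5719, 4928 and 4244 CPM at day 0 (log2 2.60 ± 0.31, adjusted p = 3.03e-05). vit-2 had log2 2.09 ± 0.30 (adjusted p = 1.15e-04) and vit-6 had 1.60 ± 0.32 (adjusted p = 0.00123). vit-1 fell, with 1004, 728 and 875 CPM at day 5 and 4801, 2608 and 2874 CPM at day 0 (log2 -1.98 ± 0.37, adjusted p = 7.69e-04). vit-3 and vit-4 were not called, at log2 -0.49 and -0.02. The vitellogenins are near-identical within subgroups, so the split of reads among them is uncertain.

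Transcripts of the major sperm proteins were low at day 5. As a detection floor, 3 counts correspond to 0.0584 to 0.157 CPM over the 6 libraries. All 29 tested major sperm protein genes (31 in the list), which encode the cytoskeletal protein that moves the sperm and signals to oocytes, fell, with a median log2 of -8.01. Their summed level was 250-fold lower, at 8.91e-04%, 7.64e-04% and 4.68e-04% of counts at day 5 and 0.126%, 0.268% and 0.191% at day 0. msp-36 had 0.679, 0.508 and 0.262 CPM at day 5 and 103, 238 and 167 CPM at day 0 (log2 -8.40 ± 0.54, adjusted p = 9.65e-07). Day 0 replicate 1 was the lowest and replicate 2 the highest of the day 0 libraries in this gene and in the sum. Copies of this family share reads, so the sum is firmer than any single gene.

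Other sperm classes moved the same way, with exceptions that are named here. Of 64 tested genes of the small nematode sperm families, 44 fell and 1 rose, nspe-2, whose call was lost without day 0 replicate 1 or 2 or day 5 replicate 1 or 3 (adjusted p up to 0.0948). The median of that list was -5.10, or -4.51 with 4 genes at 0 in every day 5 library set to the floor. Of 29 spermatogenesis genes 23 fell, with a median of -4.05, and spe-48, spe-39 and spe-44 rose. spe-46 had 0.17, 0.332 and 0.314 CPM at day 5 and 13.2, 29.2 and 19.4 CPM at day 0 (log2 -6.19 ± 0.55, adjusted p = 4.65e-06). spe-39, which encodes a vesicle trafficking protein used beyond sperm, had 135, 112 and 140 CPM at day 5 against 77.7, 66.7 and 72 CPM at day 0 (log2 0.84 ± 0.12, adjusted p = 1.11e-04). spe-44, a transcriptional regulator at the start of spermatogenesis, had 23, 16.9 and 22.3 CPM at day 5 and 10.2, 12.2 and 11.7 CPM at day 0 (log2 0.87 ± 0.20, adjusted p = 0.00342).

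Germline regulators were mixed in direction. fog-1 (chromosome I, 3211046 to 3217267) encodes an RNA-binding protein that directs germ cells to the sperm fate. It had 146, 110 and 117 CPM at day 5 and 18.6, 14 and 16 CPM at day 0, with no overlap (log2 2.94 ± 0.15, adjusted p = 5.2e-07). Of 18 germline stem cell regulators 10 rose and 3 fell. glp-1, the Notch receptor that keeps germ cells dividing, had 300, 245 and 320 CPM at day 5 against 172, 138 and 172 CPM at day 0 (log2 0.85 ± 0.16, adjusted p = 8.07e-04), and its target lst-1 had log2 0.95 ± 0.13 (adjusted p = 8.26e-05). fbf-2, a Pumilio-family repressor of the stem cell zone, fell, at log2 -0.87 ± 0.20 (adjusted p = 0.00287). Its close relative fbf-1 was not called, at log2 0.03.

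Most oocyte and eggshell genes rose. Of 25 oocyte and maternal RNA-binding genes 19 rose (13 in the test against a 1.5-fold change), with a median log2 of 0.92, and of 19 eggshell and egg activation genes 17 rose, with a median of 1.22. puf-5 (chromosome II, 8575541 to 8577787), a translational repressor of growing oocytes, had 1454, 1103 and 1506 CPM at day 5 and 473, 273 and 418 CPM at day 0 (log2 1.80 ± 0.21, adjusted p = 2.39e-05). cpg-2, a chondroitin proteoglycan of the eggshell, had 4759, 3563 and 5264 CPM at day 5 and 1683, 1004 and 1723 CPM at day 0 (log2 1.62 ± 0.25, adjusted p = 1.59e-04). In both genes replicate 2 was the lowest library of each age. The single eggshell-list gene that fell was spe-11, a sperm-supplied egg activation factor, at log2 -4.28 ± 0.61 (adjusted p = 9.96e-05, and -3.64 without day 0 replicate 2). car-1, a maternal RNA-binding protein, was called lower at log2 -0.75, and lost the call without day 5 replicate 1 (adjusted p = 0.051).

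Some genes that embryos transcribe were also higher, at low levels. Of 34 tested early zygotic genes (57 in the list) 17 rose and 2 fell (1 without any 1 day 5 replicate), with a median of 1.27. sdz-28 had 1.66, 2.19 and 1.31 CPM at day 5 and 0.129, 0.311 and 0.209 CPM at day 0 (log2 2.96 ± 0.49, adjusted p = 3.11e-04). end-3, an endoderm-specifying GATA factor, had 0.934, 1.27 and 0.89 CPM at day 5 and 0.491, 0.35 and 0.329 CPM at day 0 (log2 1.41 ± 0.31, adjusted p = 0.00222). The defining embryonic marker med-1 had at most 0.0425 CPM in any N2 library and was not tested, nor was pes-10, which reached at most 0.195 CPM. The part that embryos held in the animals have in these values was not tested.

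Most DNA replication genes rose, in animals kept on an inhibitor of DNA synthesis. Of 34 such genes 28 rose (12 in the test against a 1.5-fold change) and none fell, with a median log2 of 0.73. pcn-1, the sliding clamp PCNA, had 550, 492 and 513 CPM at day 5 and 242, 182 and 236 CPM at day 0 (log2 1.24 ± 0.14, adjusted p = 2.48e-05). mcm-3, a subunit of the replicative helicase, had log2 1.12 ± 0.13 (adjusted p = 2.68e-05). Of 47 cyclin and mitosis genes 27 rose (7 in the test against a 1.5-fold change) and 4 fell (2 without day 5 replicate 1). The mitotic kinase gene cdk-1 had 301, 265 and 327 CPM at day 5 and 138, 108 and 130 CPM at day 0 (log2 1.25 ± 0.16, adjusted p = 4.5e-05). Meiotic axis and synapsis genes moved less. Of 35 genes 10 rose and 1 fell (2 without day 5 replicate 3), with a median of 0.23, and the number of rises was 5 without day 0 replicate 3 and 6 without day 0 replicate 2 or day 5 replicate 2 or 3. In the test against a 1.5-fold change 1 of them rose. pch-2, a meiotic checkpoint ATPase, had 63.6, 61.1 and 69.4 CPM at day 5 and 24.3, 20.1 and 22.3 CPM at day 0 (log2 1.54 ± 0.14, adjusted p = 5.14e-06).

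The target of the drug was among the stronger rises of this class. tyms-1 (chromosome I, 5138250 to 5139382), the thymidylate synthase gene, had 55.7, 52.6 and 56.1 CPM at day 5 and 12, 6.52 and 12 CPM at day 0 (log2 2.43 ± 0.24, adjusted p = 8.75e-06). Of 17 pyrimidine and deoxynucleotide genes 8 rose and 6 fell. The rises include upp-1, the uridine phosphorylase gene, at log2 1.21 ± 0.12 (adjusted p = 1.11e-05), and umps-1, the UMP synthase gene, at 0.89 ± 0.14 (adjusted p = 2.11e-04). The falls include dpyd-1, the first enzyme of pyrimidine breakdown, which had 21.7, 21.2 and 31.9 CPM at day 5 and 77.9, 91.7 and 115 CPM at day 0 (log2 -1.93 ± 0.22, adjusted p = 2.27e-05), and the cytidine deaminase gene cdd-1 at -1.89 ± 0.43 (adjusted p = 0.00288). Of 37 DNA damage checkpoint and repair genes 21 rose (11 in the test against a 1.5-fold change) and 1 fell (3 without day 5 replicate 3), with a median of 0.46. The worm p53 gene cep-1 had 63.3, 65.7 and 74.8 CPM at day 5 and 62.9, 51.4 and 53.6 CPM at day 0, and its apoptotic target egl-1 had log2 0.64 ± 0.36. Neither gene was called, with an adjusted p of 0.161 for egl-1 and of 0.0754 for cep-1.

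Of 19 tested Argonaute genes, the effectors of small RNAs, 6 rose, 4 fell and 9 were not called, with a median of 0.18 (-0.04 without day 5 replicate 3). alg-3, which acts in sperm formation, had 0.722, 0.429 and 0.471 CPM at day 5 and 17.9, 60.8 and 44.1 CPM at day 0 (log2 -6.27 ± 0.78, adjusted p = 3.96e-05). Its near copy alg-4 had 0.425, 0.332 and 0.314 CPM at day 5 and 19.4, 61.3 and 44.6 CPM at day 0. ergo-1, which binds small RNAs of oocytes and embryos, had 535, 358 and 506 CPM at day 5 and 132, 92.5 and 132 CPM at day 0 (log2 1.97 ± 0.19, adjusted p = 6.44e-06). hrde-1, the nuclear Argonaute of heritable silencing, had log2 1.05 ± 0.17 (adjusted p = 2.95e-04). Of 18 germ granule genes 2 rose and 2 fell (1 in either direction without day 5 replicate 1), with the helicase gene glh-1 at log2 -0.92 ± 0.16 (adjusted p = 4.81e-04).

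**Figure D3:**
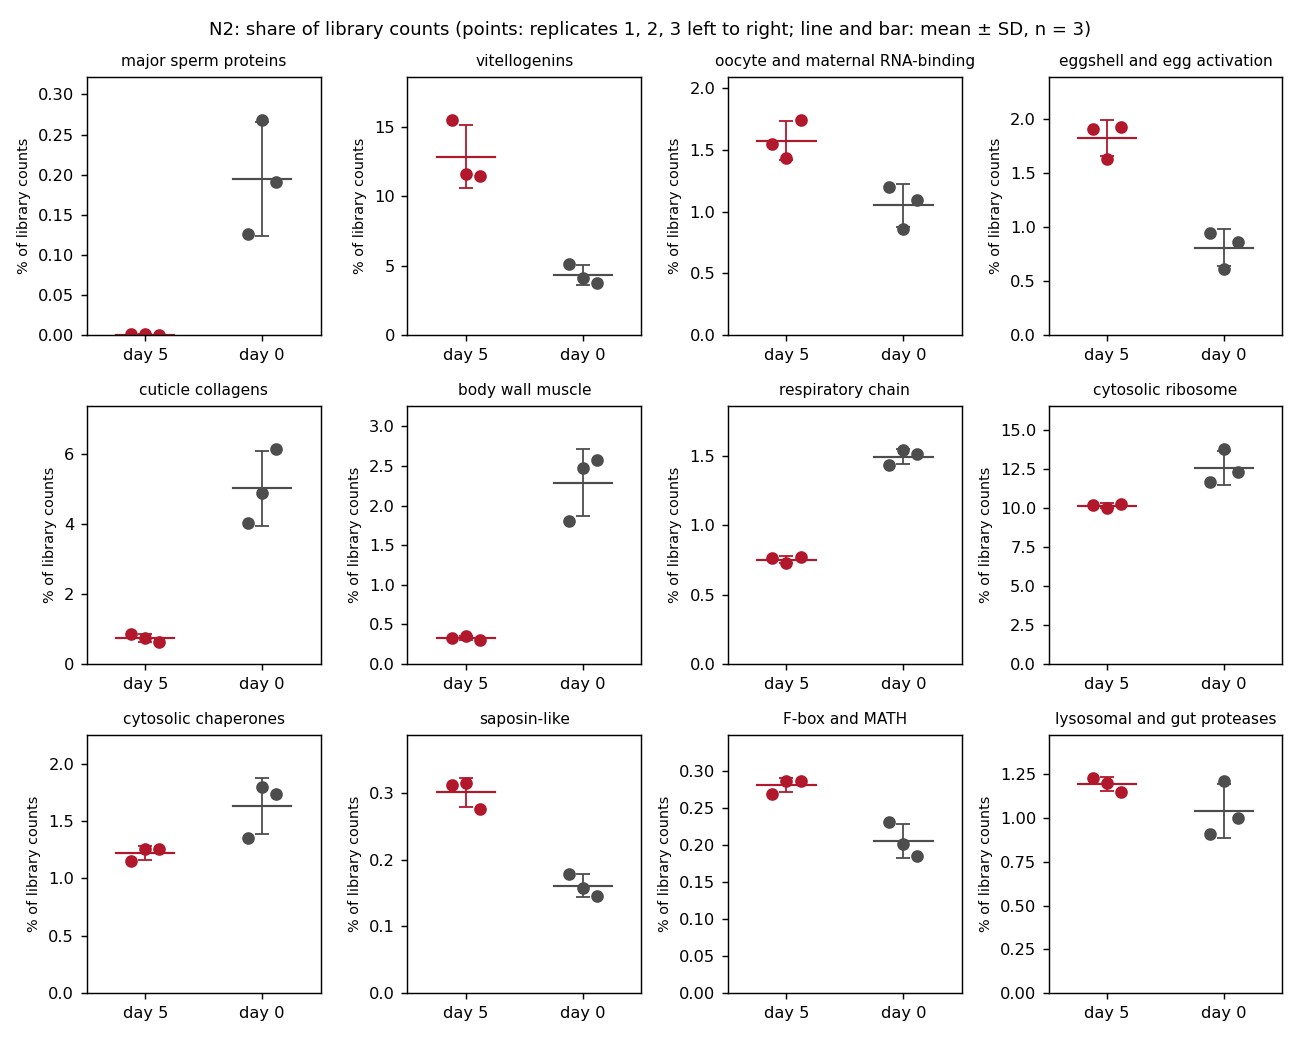
Share of library counts (vertical axis, %) of 12 lists in N2 day 5 (left, red) and N2 day 0 (right, grey), with points for replicates 1, 2 and 3 from left to right and the mean ± SD (n = 3). The shares of muscle, collagen, respiratory chain and major sperm protein genes are lower in every day 5 library than in any day 0 library, and yolk, oocyte, eggshell and saposin-like shares are higher. The shares of lysosomal and gut proteases overlap.

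Cuticle collagen genes fell as a family. Of 149 tested (175 in the list) 116 fell and 12 rose, with a median log2 of -3.79 (-3.67 with 3 genes at 0 in every day 5 library set to the floor of 3 counts), and their share of counts was 0.85%, 0.736% and 0.64% at day 5 against 4.02%, 4.88% and 6.14% at day 0. col-19 (chromosome X, 421707 to 422691), the usual marker of adult epidermis, had 136, 87.7 and 116 CPM at day 5 and 1956, 2437 and 2794 CPM at day 0 (log2 -4.40 ± 0.28, adjusted p = 9.53e-07). col-124 had 83.5, 56.6 and 55.7 CPM at day 5 and 3682, 4181 and 5552 CPM at day 0 (log2 -6.10 ± 0.38, adjusted p = 9.41e-07). Day 0 replicate 3 was the highest library in both, and in the collagen share. The molt-linked collagen rol-6 had 0.0425, 0.0195 and 0 CPM at day 5, and 0.517, 1.4 and 3.5 CPM at day 0, again with replicate 3 on top. Of the 12 rises 7 passed the test against a 1.5-fold change, and the 12 ranged from log2 0.82 for dpy-10, named after its value was seen, to 7.24 for col-183. Among the larger ones col-43 had 54, 42.6 and 21.4 CPM at day 5 and 1.4, 1.52 and 1.47 CPM at day 0 (log2 4.75 ± 0.45, adjusted p = 6.37e-06), and col-95 had 801, 483 and 545 CPM at day 5 and 57.9, 43 and 81.1 CPM at day 0 (log2 3.33 ± 0.35, adjusted p = 1.35e-05). Without day 5 replicate 1, 7 cuticle collagens were called higher.

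Other epidermal classes were mixed. The epidermal markers elt-3 and nhr-25 were not called, at log2 -0.47 ± 0.34 and -0.16 ± 0.42. Of 39 tested hedgehog-related genes, secreted proteins of epidermis and glia, 17 fell and 9 rose, and 5 rose without day 5 replicate 1. grd-3 had 8.15, 7.11 and 5.13 CPM at day 5 and 136, 124 and 172 CPM at day 0 (log2 -4.40 ± 0.24, adjusted p = 5.66e-07), whereas grl-17 had 2.72, 2.54 and 2.41 CPM at day 5 and 0.414, 0.331 and 0.209 CPM at day 0 (log2 2.98 ± 0.32, adjusted p = 1.53e-05). Of 81 molting and apical matrix genes 15 rose and 16 fell, shares below those of all genes. Of 19 epidermal attachment genes 4 rose and 5 fell (3 without day 0 replicate 3), with a median of -0.33. The rises include hmr-1, the cadherin gene, at log2 0.92 ± 0.18 (adjusted p = 0.0011) and hmp-1, the alpha-catenin gene, at 0.66 ± 0.13 (adjusted p = 8.41e-04).

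Body wall muscle genes fell almost throughout. Of 34 genes 29 fell, 1 rose and 4 were not called, with a median log2 of -2.41. unc-54 (chromosome I, 14855901 to 14863482), the major myosin heavy chain, had 604, 487 and 527 CPM at day 5 and 3212, 5442 and 6859 CPM at day 0 (log2 -3.26 ± 0.37, adjusted p = 2.24e-05). unc-27, a troponin I gene, had 130, 128 and 119 CPM at day 5 and 889, 1195 and 1140 CPM at day 0 (log2 -3.10 ± 0.15, adjusted p = 4.86e-07). Day 0 replicate 1 was the lowest day 0 library in both. The exception was pat-3, a beta integrin used in many tissues, with 199, 180 and 224 CPM at day 5 and 125, 117 and 143 CPM at day 0 (log2 0.65 ± 0.14, adjusted p = 0.00171). hlh-1, the MyoD-like factor of muscle, had 0.764, 0.839 and 0.943 CPM at day 5 and 1.14, 1.23 and 1.38 CPM at day 0 and was not called (log2 -0.56 ± 0.32, adjusted p = 0.163).

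Pharynx and basement membrane genes fell with muscle. Of 21 tested pharynx genes 14 fell and 3 rose (1 without day 0 replicate 1). The pharyngeal myosin gene myo-1 had 30.4, 42.9 and 26.9 CPM at day 5 and 230, 436 and 372 CPM at day 0 (log2 -3.37 ± 0.39, adjusted p = 2.48e-05), and phat-4, a mucin-like product of pharyngeal glands, had 0.977, 0.605 and 0.314 CPM at day 5 and 37, 62.3 and 72 CPM at day 0 (log2 -6.47 ± 0.54, adjusted p = 3.16e-06). Of 19 basement membrane genes 13 fell (9 in the test against a 1.5-fold change) and none rose. When 1 N2 library was left out 10 to 14 fell, and 1 rose without day 0 replicate 3. The laminin alpha gene epi-1 had log2 -2.10 ± 0.26 (adjusted p = 3.46e-05) and ost-1, the SPARC gene, -1.50 ± 0.20 (adjusted p = 7.67e-05).

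Intestinal identity genes did not move as 1 group. Of 18 genes 4 rose, 3 fell and 11 were not called. elt-2 (chromosome X, 10481240 to 10483441), the GATA factor that maintains the intestine, had 23.4, 13.3 and 20.3 CPM at day 5 and 6.28, 4.65 and 7.66 CPM at day 0 (log2 1.61 ± 0.37, adjusted p = 0.0029), and the gut esterase gene ges-1 had log2 1.22 ± 0.25 (adjusted p = 0.00148). pept-1 (chromosome X, 6456872 to 6461767), the main intestinal peptide transporter, had 11.9, 10.9 and 13.8 CPM at day 5 and 44.4, 59.3 and 57.1 CPM at day 0 (log2 -2.14 ± 0.31, adjusted p = 1.09e-04). act-5, the actin of intestinal microvilli, had log2 -1.43 ± 0.31 (adjusted p = 0.00215).

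In several neuronal lists the called shares lay below those of all genes. Of 30 tested FMRFamide-like peptide genes 1 rose and 3 fell (7 without day 5 replicate 2, and 1 without day 0 replicate 2 or day 5 replicate 1 or 3). Of 47 cilia genes 3 rose and 5 fell (12 without day 5 replicate 2). Among neuronal markers rab-3 had 6.37, 8.02 and 6.76 CPM at day 5 and 10.1, 10.4 and 9.34 CPM at day 0 and was not called (log2 -0.50 ± 0.20, adjusted p = 0.0514). The markers unc-64, egl-3 and rgef-1 were not called either, at log2 -0.02, -0.06 and -0.30, and the marker snb-1 rose, as given below. Of 33 synaptic release and transmitter genes 13 fell and 6 rose, and the falls numbered 8 without day 5 replicate 1 and 7 without day 5 replicate 3. The rises include genes also expressed outside neurons. snb-1, the synaptobrevin gene, had log2 0.86 ± 0.10 (adjusted p = 2.4e-05), and tdc-1, the tyrosine decarboxylase gene also used in the gonadal sheath, had 322, 272 and 381 CPM at day 5 and 131, 75 and 118 CPM at day 0 (log2 1.59 ± 0.23, adjusted p = 1.09e-04). Of 14 touch receptor neuron genes 1 rose (2 without day 0 replicate 1), 3 fell and 10 were not called, with a median of -0.36. The falls include the tubulin genes mec-7, at log2 -1.63 ± 0.20 (adjusted p = 3.09e-05), and mec-12, at -1.52 ± 0.17 (adjusted p = 1.95e-05).

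Most genes of energy metabolism in mitochondria fell, with a few far deeper than the rest. Of 49 respiratory chain genes 42 fell (12 in the test against a 1.5-fold change) and 1 rose, with a median log2 of -0.69. Of 29 tricarboxylic acid cycle genes 21 fell (10 in that test) and 1 rose, with the same median of -0.69. The single rises, hpo-19 (adjusted p up to 0.0793) and ogdh-2 (adjusted p up to 0.171), lost the call without any 1 of all 6 libraries for hpo-19 and of 5 for ogdh-2, all but day 5 replicate 2. ucr-2.2, a core subunit gene of complex III, had 15.9, 13.3 and 13.3 CPM at day 5 and 48, 63.9 and 63.9 CPM at day 0 (log2 -2.05 ± 0.20, adjusted p = 7.93e-06). mdh-2, the mitochondrial malate dehydrogenase gene, had 243, 229 and 277 CPM at day 5 and 536, 612 and 696 CPM at day 0 (log2 -1.30 ± 0.16, adjusted p = 4.27e-05). Among genes encoded on the mitochondrial genome, 14 were tested, 8 fell and 1, a ribosomal RNA, rose. COX3 had 1082, 2046 and 1273 CPM at day 5 and 2993, 2701 and 2681 CPM at day 0 (log2 -0.93 ± 0.25, adjusted p = 0.0082), with day 5 replicate 2 nearest to day 0. Mitochondrial RNA took 0.945% ± 0.336 of counts at day 5 and 1.84% ± 0.265 at day 0, and how poly(A) selection treats it was not tested.

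Sugar metabolism was mixed. Of 19 glycolysis genes 8 fell and 3 rose. aldo-1, an aldolase gene, had 36.3, 35.2 and 34.7 CPM at day 5 and 177, 224 and 267 CPM at day 0 (log2 -2.65 ± 0.19, adjusted p = 1.57e-06). hxk-1, a hexokinase gene, rose, with log2 0.90 ± 0.14 (adjusted p = 2.39e-04). Of 12 trehalose and glycogen genes 3 rose and 1 fell, and the fall was the glycogen synthase gene gsy-1 at -0.65 ± 0.16 (adjusted p = 0.00432), while the glycogen phosphorylase gene pygl-1 had 0.96 ± 0.21 (adjusted p = 0.00186).

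Lipid droplet genes mostly rose, and lists of fatty acid synthesis and oxidation went both ways. Of 17 tested lipase and lipid droplet genes 12 rose and 1 fell, with a median of 0.99. plin-1, the perilipin gene that coats lipid droplets, had 524, 529 and 524 CPM at day 5 and 237, 218 and 260 CPM at day 0 (log2 1.14 ± 0.13, adjusted p = 2.71e-05). lipl-3, a lysosomal lipase gene, had 3.52, 2.6 and 4.82 CPM at day 5 and 0.0776, 0.0584 and 0.15 CPM at day 0, the day 0 values lying at about the level of 3 counts (log2 5.27 ± 0.66, adjusted p = 4.13e-05). Of 22 fatty acid synthesis genes 8 rose (5 without day 0 replicate 1) and 8 fell. The rises hold 6 desaturase genes, of which fat-6 lost its call without day 0 replicate 1 or 3 or day 5 replicate 1 or 2 (adjusted p up to 0.108), and the falls are let-767 and 7 of the 8 called elongase genes. fat-4, a delta-5 desaturase gene, had 501, 566 and 474 CPM at day 5 and 237, 245 and 225 CPM at day 0 (log2 1.12 ± 0.14, adjusted p = 4.97e-05), and fat-5, a palmitoyl-CoA desaturase gene, had 180, 210 and 192 CPM at day 5 and 11.3, 53.7 and 29.2 CPM at day 0 (log2 2.63 ± 0.49, adjusted p = 7.02e-04, and 3.26 without day 0 replicate 2). elo-9 had log2 -1.11 ± 0.23 (adjusted p = 0.0015).

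Of 47 fatty acid oxidation genes 16 rose and 14 fell. Rises include enzymes of the peroxisomal pathway that also shortens ascaroside pheromones. dhs-28 had 173, 171 and 152 CPM at day 5 and 53.5, 64.7 and 59.2 CPM at day 0 (log2 1.48 ± 0.19, adjusted p = 5.26e-05), and acox-3, an acyl-CoA oxidase gene, had log2 2.59 ± 0.34 (adjusted p = 6.13e-05). Of the same pathway, and named after their values were seen, maoc-1 had 1.38 ± 0.23 (adjusted p = 3.45e-04) and daf-22 had 1.11 ± 0.21 (adjusted p = 7.51e-04). Falls include the acyl-CoA dehydrogenase genes acdh-9, at -1.74 ± 0.14 (adjusted p = 2.95e-06), and acdh-13, at -1.39 ± 0.16 (adjusted p = 2.17e-05). Of 17 peroxisome biogenesis genes 8 rose (5 without day 0 replicate 3) and 1 fell, with the peroxisomal catalase gene ctl-2 at 1.55 ± 0.30 (adjusted p = 9.67e-04).

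Methionine and amino acid metabolism leaned lower. Of 20 one-carbon and methionine genes 9 fell and 1 rose, and of 22 amino acid breakdown genes 11 fell and 3 rose (1 without day 0 replicate 2). sams-1 (chromosome X, 11965962 to 11969893), the main S-adenosylmethionine synthetase gene, had 48.1, 55.5 and 54.3 CPM at day 5 and 266, 498 and 500 CPM at day 0 (8-fold lower, SE 0.37 on the log2 scale, adjusted p = 3.93e-05). pmt-2, a phosphoethanolamine methyltransferase that uses its product, had log2 -1.61 ± 0.20 (adjusted p = 4.42e-05). The proline dehydrogenase gene prdh-1 had 10, 19.9 and 11 CPM at day 5 and 47.8, 68 and 51.1 CPM at day 0 (log2 -2.02 ± 0.26, adjusted p = 5.36e-05).

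Most genes that build ribosomes fell, and most genes of the cytosolic ribosome were not called. Of 16 tested nucleolus and RNA polymerase I genes 12 fell (4 in the test against a 1.5-fold change) and 1 was called higher, with a median of -0.71. rpoa-1, the largest subunit gene of RNA polymerase I, had 58.2, 56.2 and 71.3 CPM at day 5 and 154, 156 and 201 CPM at day 0 (log2 -1.46 ± 0.17, adjusted p = 2.48e-05). Of 83 cytosolic ribosome genes 24 fell (15 without day 0 replicate 2) and 1 was called higher (3 without day 5 replicate 2), with a median of -0.13, near that of all genes. rps-2 had 850, 698 and 887 CPM at day 5 and 1481, 1893 and 1903 CPM at day 0 (log2 -1.12 ± 0.15, adjusted p = 5.72e-05). Of 65 mitochondrial ribosome genes 37 fell (10 in the test against a 1.5-fold change) and 1 rose, with a median of -0.46. Of 31 tRNA synthetase genes 18 fell (5 in that test) and 1 rose, with gars-1, for glycine, at -1.05 ± 0.13 (adjusted p = 3.07e-05). The called rises of ncl-1, a nucleolus size regulator, and rla-0, a stalk protein of the ribosome, were lost without day 0 replicate 1 or day 5 replicate 1, and that of ncl-1 also without day 0 replicate 2 or day 5 replicate 3, with an adjusted p up to 0.0602 for rla-0 and 0.118 for ncl-1.

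Among protein folding genes the cytosolic and mitochondrial lists leaned lower, and the list of the endoplasmic reticulum did not. Of 38 tested cytosolic chaperone genes 16 fell and 6 rose (3 without day 0 replicate 2 and 2 without day 5 replicate 3). The small heat shock genes moved in both directions, hsp-25 with 61.8, 60.5 and 50.1 CPM at day 5 and 133, 185 and 181 CPM at day 0 (log2 -1.53 ± 0.20, adjusted p = 4.9e-05), and sip-1, an oocyte and embryo member of that family, with 2233, 1478 and 2558 CPM at day 5 and 873, 673 and 1200 CPM at day 0 (log2 1.19 ± 0.25, adjusted p = 0.00175). The stress-induced hsp-16.2 had 65, 155 and 40.8 CPM at day 5 and 56.8, 295 and 262 CPM at day 0, overlapping and not called (adjusted p = 0.102). Of 25 genes of folding and stress in the endoplasmic reticulum 8 rose and 5 fell (3 without day 0 replicate 2 or day 5 replicate 1 or 3), with a median of -0.08 (0.09 without day 0 replicate 2). Of 19 mitochondrial chaperone and stress genes 9 fell and none rose. hsp-60, the mitochondrial chaperonin gene, had 186, 186 and 247 CPM at day 5 and 484, 660 and 634 CPM at day 0 (log2 -1.52 ± 0.17, adjusted p = 2.22e-05). Of 33 proteasome genes 14 fell and none rose (at most 1 when 1 N2 library was left out). The falls numbered 8 without day 0 replicate 2 or day 5 replicate 1 or 2.

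Of 28 autophagy genes 15 rose and none fell, with a median of 0.53. When 1 N2 library was left out 13 to 14 rose and at most 1 fell. epg-6, a phosphoinositide-binding protein of autophagosome formation, had 111, 104 and 119 CPM at day 5 and 63.1, 57.2 and 59.1 CPM at day 0 (log2 0.90 ± 0.11, adjusted p = 3.9e-05). Of 32 tested lysosomal and gut protease genes 14 rose and 6 fell. lgmn-1 (chromosome V, 12513056 to 12514941), which encodes the legumain-type protease, had 323, 386 and 340 CPM at day 5 and 32.6, 31.5 and 21.4 CPM at day 0 (log2 3.62 ± 0.21, adjusted p = 7.05e-07), and asp-4, an aspartyl protease of the cathepsin D type, had 1339, 1193 and 1346 CPM at day 5 and 222, 240 and 217 CPM at day 0 (log2 2.51 ± 0.20, adjusted p = 2.3e-06). cpr-5, a cathepsin B-like protease gene, fell, with 53.6, 40.5 and 50.4 CPM at day 5 and 91.5, 285 and 221 CPM at day 0 (log2 -2.05 ± 0.46, adjusted p = 0.00262). Subunits of the vacuolar ATPase, which acidifies lysosomes, went the other way from the autophagy list, with 9 of 21 lower (5 without day 0 replicate 2) and 3 higher.

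Detoxification families differed in direction. Of 59 tested cytochrome P450 genes 28 rose and 3 fell (1 without day 5 replicate 1 or 3), and of 40 tested glutathione S-transferase genes 3 rose and 18 fell. Of 63 tested UDP-glucuronosyltransferases 15 were higher (23.8%) and 13 lower (20.6%), no more than the 23.8% and 28.2% of all genes. cyp-14A5 (chromosome V, 5421018 to 5423282) had 213, 243 and 210 CPM at day 5 and 16.1, 25.9 and 19.9 CPM at day 0 (log2 3.43 ± 0.26, adjusted p = 2.07e-06). gst-28 had 1.1, 1.27 and 1.62 CPM at day 5 and 7.45, 12.1 and 10.7 CPM at day 0 (log2 -2.93 ± 0.25, adjusted p = 3.41e-06). mtl-1, a metallothionein gene, had 66.5, 53.2 and 67.7 CPM at day 5 and 0.336, 0.954 and 0.658 CPM at day 0 (log2 6.56 ± 0.41, adjusted p = 9.53e-07).

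Most saposin-like genes rose, and other families of secreted defence proteins went both ways. Of 24 tested saposin-like genes, pore-forming or lipid-binding peptides of the gut, 17 rose and 1 fell (2 without day 0 replicate 1), with a median of 1.19. spp-1 had 129, 109 and 93.6 CPM at day 5 and 28.2, 25.4 and 25.9 CPM at day 0 (log2 2.06 ± 0.16, adjusted p = 2.48e-06). Of 12 tested lysozyme genes 4 rose and 2 fell, lys-8 with log2 1.91 ± 0.17 (adjusted p = 5.17e-06) and lys-4 with -2.90 ± 0.26 (adjusted p = 4.35e-06). Of 133 tested C-type lectin genes 49 rose and 27 fell. clec-62 had 172, 167 and 171 CPM at day 5 and 25.3, 29.7 and 29.1 CPM at day 0 (log2 2.60 ± 0.20, adjusted p = 2.2e-06). Of 46 tested genes in the epidermal antimicrobial peptide list, which also holds abf genes, 16 rose and 15 fell. The median of the list was -0.13 (0.13 with N2 libraries alone). By prefix, counted after the values were seen, 7 of 9 tested cnc genes rose and none fell, and 12 of 21 fipr genes fell and 3 rose. cnc-2 had 3.57, 5.95 and 5.29 CPM at day 5 and 0.207, 0.156 and 0.239 CPM at day 0 (log2 4.63 ± 0.35, adjusted p = 2.05e-06). irg-4, an infection response gene, fell, with 10.3, 8.61 and 14.2 CPM at day 5 and 106, 83 and 77.1 CPM at day 0 (log2 -3.02 ± 0.38, adjusted p = 4.29e-05).

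Many of the genes of the insulin and TOR pathways rose, by small amounts. Of 31 such genes 15 rose and 2 fell, with a median of 0.45, and the 2 falls, ist-1 and pptr-1, lost their calls without day 0 replicate 3 or day 5 replicate 1, and without others (adjusted p up to 0.111 for ist-1 and 0.103 for pptr-1). rict-1 (chromosome II, 13098239 to 13116810), the Rictor subunit gene of TOR complex 2, had 290, 228 and 323 CPM at day 5 and 93.6, 61.2 and 100 CPM at day 0 (log2 1.72 ± 0.21, adjusted p = 3.54e-05). akt-1, a kinase gene downstream of the insulin receptor, had 267, 268 and 272 CPM at day 5 and 143, 111 and 127 CPM at day 0 (log2 1.08 ± 0.11, adjusted p = 1.13e-05). daf-2, the insulin receptor gene, was called at log2 0.79 ± 0.24 (adjusted p = 0.0143) but not without day 0 replicate 2 or day 5 replicate 3 (adjusted p up to 0.0575). daf-16, the FOXO factor that the pathway restrains, had 245, 234 and 273 CPM at day 5 and 210, 168 and 214 CPM at day 0 and was not called (adjusted p = 0.0877).

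Most insulin-like peptide genes were not called. Of 31 tested 5 rose and 3 fell, both shares below those of all genes. ins-7, an intestinal agonist ligand, had 21.1, 24.7 and 16.5 CPM at day 5 and 2.95, 3.1 and 3.17 CPM at day 0 (log2 2.76 ± 0.21, adjusted p = 2.07e-06). ins-33, another of these peptides, had 0.297, 0.195 and 0.262 CPM at day 5 and 1.19, 1.65 and 1.29 CPM at day 0 (log2 -2.49 ± 0.34, adjusted p = 7.00e-05).

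Of 33 longevity and stress regulators 13 rose and 4 fell (2 without day 0 replicate 3 or day 5 replicate 1). daf-9 (chromosome X, 6196927 to 6200823), the cytochrome P450 that makes the steroid hormone dafachronic acid, had 0.17, 0.273 and 0.314 CPM at day 5 and 1.45, 2.53 and 2.03 CPM at day 0 (log2 -2.97 ± 0.39, adjusted p = 5.96e-05). pqm-1, a zinc finger factor that opposes DAF-16 at many promoters, had 50.9, 57.6 and 49.3 CPM at day 5 and 22, 36.3 and 29.7 CPM at day 0 (log2 0.84 ± 0.22, adjusted p = 0.00729). hlh-30, the TFEB factor of autophagy, was not called (log2 0.42 ± 0.24, adjusted p = 0.153), and skn-1 and hsf-1, at 0.52 and 0.44, were called but lost the call without day 5 replicate 3, and skn-1 also without day 0 replicate 1 or 2 or day 5 replicate 1 (adjusted p up to 0.0979 for skn-1 and 0.0531 for hsf-1). Of 23 tested genes that the literature lists as induced by DAF-16, 12 rose and 3 fell.

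Transcription factor families differed. Of 10 tested GATA factor genes 6 rose (4 to 5 when 1 N2 library was left out) and none fell. Of 196 tested nuclear hormone receptor genes, the largest factor family of the worm, 24 rose and 30 fell, shares of 12.2% and 15.3% that lie below those of all genes. The falls numbered 14 without day 0 replicate 2 and 15 without day 5 replicate 3, and the rises 14 without day 5 replicate 1. nhr-114 had 5.35, 4.63 and 4.71 CPM at day 5 and 15.6, 13.9 and 18.7 CPM at day 0 (log2 -1.71 ± 0.23, adjusted p = 6.85e-05). Of 12 heterochronic genes, which time development, 2 rose (1 without day 0 replicate 1 or 2 or day 5 replicate 1 or 2) and 3 fell (1 without day 0 replicate 2 or day 5 replicate 1). lin-28 had 116, 97.8 and 114 CPM at day 5 and 55.7, 43 and 46.9 CPM at day 0 (log2 1.17 ± 0.14, adjusted p = 3.24e-05), and the long noncoding RNA lep-5 had 29.1, 37.5 and 29.7 CPM at day 5 and 110, 155 and 138 CPM at day 0 (log2 -2.07 ± 0.15, adjusted p = 1.89e-06).

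Substrate adaptors of ubiquitin ligases rose unevenly by subfamily. Of 264 tested F-box and MATH genes (395 in the list) 88 rose and 37 fell. Counted by name after the values were seen, 24 of 48 fbxb genes rose and 1 fell, with a median of 1.52, while 31 of 129 fbxa genes rose and 24 fell, with a median of -0.04. fbxc-44 had 95, 90 and 92.4 CPM at day 5 and 37.3, 26.6 and 29.7 CPM at day 0 (log2 1.57 ± 0.18, adjusted p = 2.38e-05). fbxa-72 had 1.15, 1.19 and 1.1 CPM at day 5 and 10, 11.5 and 13.9 CPM at day 0 (log2 -3.36 ± 0.22, adjusted p = 9.65e-07). Of 25 tested Skp-related and cullin genes, which hold those adaptors, 17 rose and 1, skr-18, was called lower (11 rose without day 0 replicate 3 or day 5 replicate 2). skr-4 had 35.5, 35.7 and 29 CPM at day 5 and 13.3, 16.5 and 12.6 CPM at day 0 (log2 1.24 ± 0.19, adjusted p = 1.68e-04). Near-identical copies occur in these families, so single-gene values are uncertain.

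Deep falls also occurred inside the metabolic and regulatory lists. Among members of the lists of germline classes other than the 3 sperm lists, metabolism, translation, proteostasis, defence and regulation, 47 fell more than 16-fold. That is a smaller share of their tested members than the 8.06% (1351 genes) over all tested genes. In 42 of these 47 (89.4%) the day 0 libraries stood in the order replicate 1, replicate 3, replicate 2 from low to high. That order held in 1160 of all 1351 genes that fell more than 16-fold (85.9%), so that its share here is near that of deep falls in general. It held in 24.3% of all tested genes, in 28 of 29 major sperm proteins (96.6%) and in 8 of 70 cuticle collagens that fell more than 16-fold (11.4%). On the first principal component day 0 replicates 1, 3 and 2 lay at -86.1, -124 and -151, with replicate 1 nearest to day 5. The component was computed from all tested genes, these deep falls among them, so it is no separate observation. What sets this order was not tested. The 47 genes include members of enzyme families with a relative that kept a higher level at day 5, though some of these relatives also fell. A family can hold several such members, as the acyl-CoA dehydrogenase gene acdh-5 also fell, at log2 -4.53 ± 0.59 (adjusted p = 5.37e-05). The pairs described next were chosen after their values were seen.

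acdh-8, an acyl-CoA dehydrogenase gene, had 0.255, 0.0976 and 0.209 CPM at day 5 and 26.4, 65 and 39.2 CPM at day 0 (log2 -8.01 ± 0.66, adjusted p = 2.95e-06), whereas its relative acdh-10 rose, at log2 0.61 ± 0.15 (adjusted p = 0.00468). The cytochrome c gene cyc-2.2 had 0.0849, 0.234 and 0 CPM at day 5 and 24.7, 54 and 29.1 CPM at day 0 (log2 -7.97 ± 0.70, adjusted p = 4.11e-06, and -9.51 without day 5 replicate 2), and cyc-2.1 had -0.78 ± 0.12 (adjusted p = 1.80e-04). pck-3, a phosphoenolpyruvate carboxykinase gene, had 0.17, 0.156 and 0.105 CPM at day 5 and 7.5, 28.4 and 16.8 CPM at day 0 (log2 -6.87 ± 0.82, adjusted p = 3.03e-05), and pck-2 was not called, at 0.09 ± 0.23. Of the phosphofructokinase genes, pfk-1.2 had -6.24 ± 0.79 (adjusted p = 4.59e-05, and -5.64 without day 0 replicate 2) and pfk-1.1 had -1.69 ± 0.14 (adjusted p = 3.17e-06). The H3 variant gene his-70 had -5.39 ± 0.69 (adjusted p = 4.79e-05), and his-72 rose, at 0.52 ± 0.10 (adjusted p = 0.001). The part of the loss of sperm RNA in these falls was not tested.

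**Figure D4:**
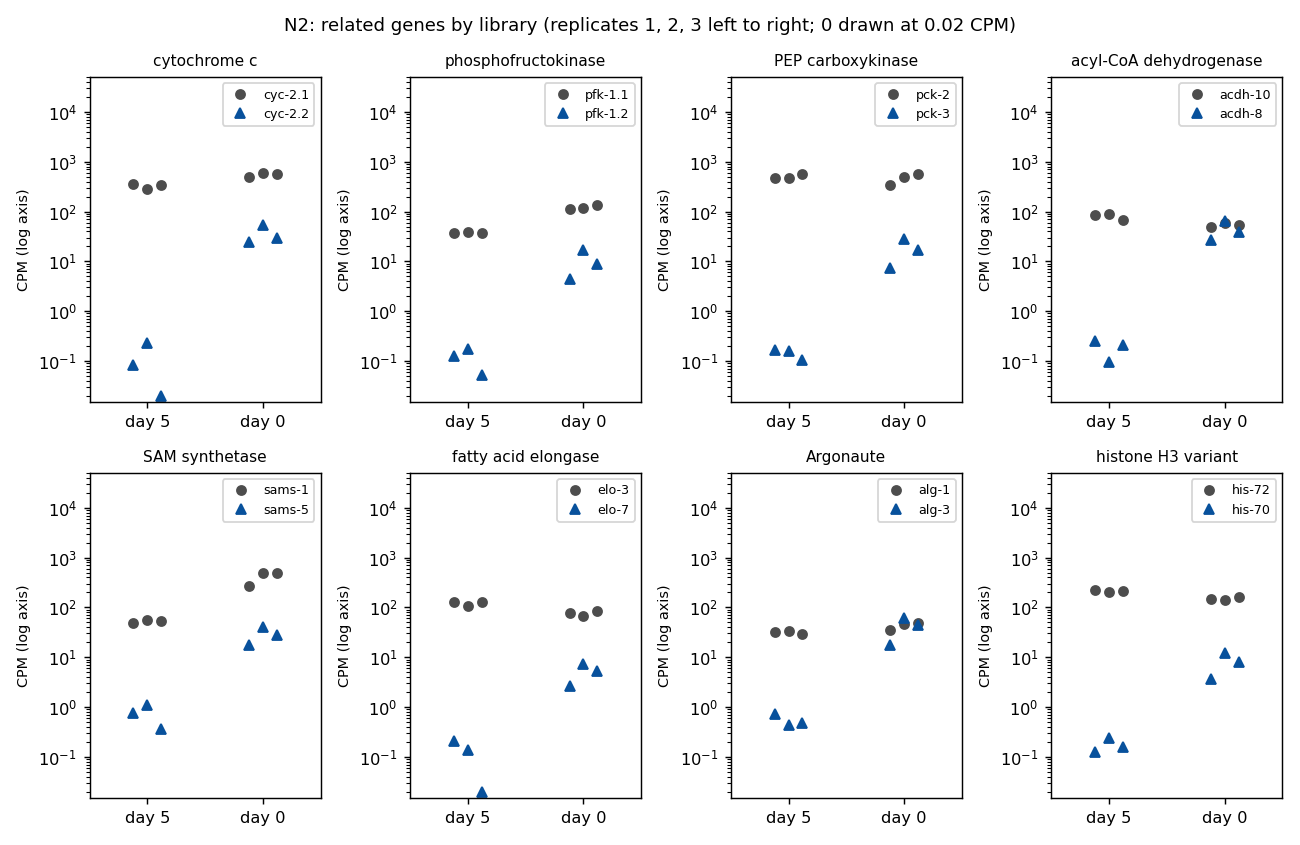
CPM (log axis) in N2 day 5 (left) and N2 day 0 (right) libraries for 8 pairs of related genes, with 3 points per age for replicates 1, 2 and 3 from left to right and 0 drawn at 0.02 CPM. The blue triangles lie at or below 1.11 CPM in every day 5 library, while the grey circles of the relatives stay at or above 28.7 CPM at both ages.

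The X chromosome had the smallest share of rises among the nuclear chromosomes. Of 2304 tested X-linked genes 14% were higher and 27.3% lower, with a median log2 of -0.25, against 25.6% and 28.4% of 14265 autosomal genes, with a median of -0.05. Yet X-linked transcripts took 14.1% ± 1.51 of counts at day 5 and 9.94% ± 0.155 at day 0. vit-2 and vit-5 lie on X. With the vitellogenins left out of both terms, the X share was 6.59%, 7.08% and 6.04% at day 5 and 7.2%, 7.78% and 7.86% at day 0, lower in every day 5 library. Among the autosomes III had the largest share of rises, 28.6% of 2503 tested genes, against 23.8% of all tested genes. IV had the largest share of falls, 31.5% of 2823, against 28.2% of all, with I and II close at 29.1% and 29.4%.

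**Figure D5:**
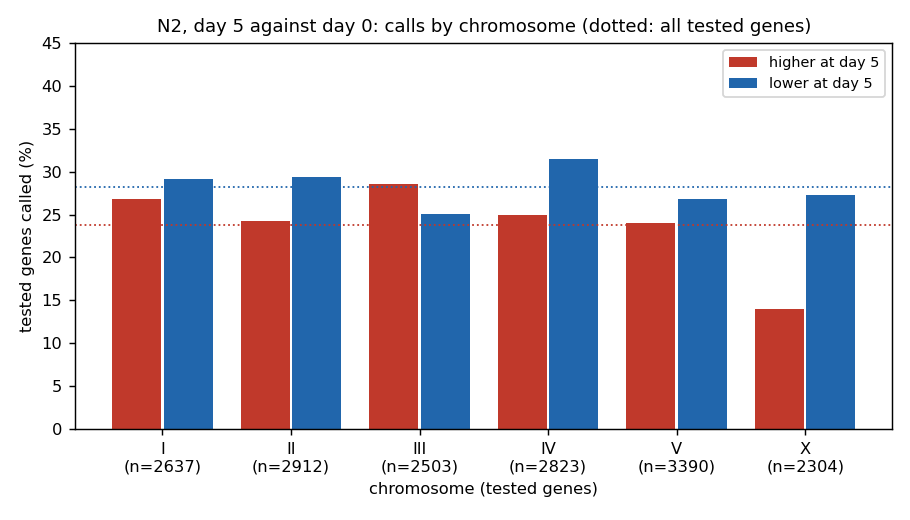
Share of tested genes called higher (red) and lower (blue) at N2 day 5 by chromosome, in %, with the tested number under each. Dotted lines mark 23.8% higher and 28.2% lower over all tested genes, and X stands out by its low share of rises, 14%.

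Few changes differed from those of the mir-71 mutants by the test of the difference itself, which called 93 genes (0.555%). That count was unstable. It lay between 10 and 81 when 1 N2 library was left out, the low value coming without day 5 replicate 1 or 3, and was 545 with DESeq2. Most of the values above were therefore not shown to be particular to the wild type. Of the genes named by the rule, mtl-1, ins-7, col-140, acn-1, ifb-1, sdz-24 and asp-14 passed, and only mtl-1 and ins-7 of these kept the call under all 15 alternatives run for that test.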

How the data were processed

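Poly(A) RNA of whole animals was sequenced on an Illumina instrument, per the labels. Reads were aligned with STAR 2.4.0h to WBcel235, per the submitters' processing notes. How reads were counted, and whether by strand, is not stated, which leaves genes that share reads or overlap uncertain. The main values are the deposited raw counts per gene, which the authors gave for 46726 gene IDs, of which 43623 matched a symbol. A deposited table of regularised log2 values, which the authors made with DESeq2 per the submitters' processing notes, served for 1 alternative.

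Counts were fitted with edgeR 4.0.16 in R 4.3.3, with TMM factors and filterByExpr, over 12 libraries with 4 group means and 8 residual degrees of freedom, and p-values were adjusted over 16764 genes. The shallowest N2 library had 21374849 counts and the deepest 51997177. CPM values use the TMM-scaled totals. In simulated counts for 16764 genes of this contrast, 94 of 100 genes changed 4-fold and 31 of 100 changed 2-fold were called, with 3 false calls. In that simulation all genes had the same spread, and only the genes just counted were changed. In the data 52.1% of genes were called, so the simulated shares need not hold for them.

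Members and lists were chosen with earlier results of these data known. Genes named are the 12 largest changes in each direction (mean of at least 8 CPM over the N2 libraries, ages not overlapping, 1 gene per symbol prefix), the 10 largest gains and losses in CPM, the 3 called members of smallest p per list and direction, and a short fixed set of regulators and reference genes. The text describes only part of the 429 genes that this rule names, and none of the reference genes. Cell type markers come from a separate list. vit-3, vit-4, fbf-1 and hsp-16.2 fall outside the rule and were chosen after their values were seen. A search of promoters for motifs was not run.

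Alternatives were RLE and upper-quartile scaling, TMM without the sperm, oocyte, yolk, collagen and muscle lists, no filter, a filter of 1 CPM in 3 libraries, N2 libraries alone, a replicate block, leaving out each N2 library, a test against a 1.5-fold change, DESeq2 1.42.0, and limma 3.58.1 on the authors' log2 values.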

Additional observations from a re-analysis of the deposited data

Results flagged for a closer look

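In 7 of the named genes the change in N2 differed from that in mir-71 mutants by the test of the difference itself (edgeR, adjusted over all tested genes). The difference is the N2 log2 change minus the mutant log2 change.

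For mtl-1, a metallothionein gene, the difference was 5.18 (adjusted p = 0.00501), with a change of 6.56 in N2 and of 1.38 in the mutants. Its mutant levels were 1.42, 0.995 and 1.76 CPM at day 5 and 0.579, 0.315 and 0.805 CPM at day 0. For ins-7, an insulin-like peptide gene, the difference was -2.52 (adjusted p = 0.00517), with a change of 2.76 in N2 and of 5.27 in the mutants. Its mutant levels were 132, 163 and 134 CPM at day 5 and 3.93, 2.67 and 4.65 CPM at day 0.

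The other 5 kept the call under 7 to 9 of 15 alternatives. The difference was -2.06 for the collagen gene col-140 (adjusted p = 0.0405), -1.88 for acn-1 (adjusted p = 0.0488) and -1.72 for the intermediate filament gene ifb-1 (adjusted p = 0.0386). It was 2.10 for sdz-24 and 2.04 for the protease gene asp-14 (both adjusted p = 0.0267), which fell further in the mutants, at -3.69 for sdz-24 and -4.03 for asp-14, than in N2, at -1.59 for sdz-24 and -1.98 for asp-14.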

How the results depend on the processing

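The number of genes called higher was 1965 in the test against a 1.5-fold change and stayed within 1.5-fold of the reported 3998 in the other alternatives. The number called lower stayed within 1.5-fold of 4731 in all of them. The share of calls that were higher was 45.8%, and 37.7% with upper-quartile scaling. The number of genes whose change differed from the mutants' was 93, and became 245 without a filter, 233 with the replicate block, 545 with DESeq2, 162 with limma on the authors' log2 values, 17 in the test against a 1.5-fold change, and 10 to 81 when 1 N2 library was left out. The cause was not tested. Of 79 lists the median of 13 changed sign under at least 1 alternative, all with a reported median of at most 0.18 in size. Among the 54 lists whose calls in the direction of the median number 3 or more and are at least 2 times those in the other, 1 did, the Wnt, Notch and TGF-beta ligands, whose median was 0.09, and -0.04 with upper-quartile scaling, and between -0.12 and 0.19 when 1 N2 library was left out, at -0.00 without day 5 replicate 1 and -0.12 without day 5 replicate 2. Of 422 called named genes 374 kept their call without each N2 library in turn.

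Samples of the 2 ages share only a replicate number. The correlation of same-numbered deviations was -0.044, 0.24 and 0.12, and with the replicate block 4267 genes were called higher and 4970 lower. Where the counts of a group were 0, depth limits the value to the floor given in the text.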

Other observations

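K06G5.1 (chromosome X, 14214973 to 14219045), a gene with a sequence name only, was among the 10 largest gains in CPM. It had 2514, 2366 and 2322 CPM at day 5 and 228, 293 and 295 CPM at day 0 (log2 3.14 ± 0.24, adjusted p = 2.05e-06). Its groups did not overlap, and the day 5 libraries lay close together. Of 56 tested transthyretin-like genes, a nematode family of secreted proteins, 25 rose and 13 fell, with a median log2 of 0.58.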
